A study of Mus musculus with 6 samples.

Results

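Carriers for sugars, lactate and other monocarboxylates, fatty acids, chloride, bicarbonate, protons, calcium and zinc were followed in the sciatic nerve of mice on postnatal day 3. The genes were chosen by symbol, as every row of the deposited table that carries the name of an SLC2, SLC4, SLC5, SLC8, SLC9, SLC12, SLC16, SLC24, SLC27, SLC30 or SLC39 gene, which gave 110 of 54838 rows. Libraries CKO1 to CKO3 came from nerves of mice with a Cnp-Cre driver and floxed Actl6a alleles, labelled CnpCre Actl6afl/fl. The libraries they were set against, WT1 to WT3, came from wild-type nerves of the same age and strain (C57 Bl). The protein of Actl6a, BAF53a, is related to actin and belongs to chromatin remodelling complexes. The Cre driver carries the name of Cnp, a gene active in myelinating Schwann cells, and which cells of the nerve carry the deletion was not tested. The question was which of these carriers differ in transcript level between the genotypes. Whether nerves of several animals were pooled in a library is not stated, and p-values here measure the spread between libraries, which may be technical in part.

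Solute carriers move small molecules across membranes by following gradients or by coupling one solute to another. In peripheral nerve, glucose enters cells through SLC2 carriers, and lactate passes between glia and axons through proton-coupled SLC16 carriers. Cation-chloride cotransporters of the SLC12 family set cell volume and chloride, SLC4 and SLC9 proteins set pH in the cytosol and in endosomes, SLC8 and SLC24 proteins expel calcium, and SLC30 and SLC39 proteins carry zinc out of and into the cytosol.

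Total counts were 31404107 to 32674317 per CKO library and 33084003 to 36760296 per WT library. Whole-nerve Actl6a transcript (CPM, counts scaled to library size with TMM factors) was 42.3, 47.5 and 41.4 CPM in CKO1 to CKO3, against 48.6, 53.3 and 46.2 CPM in WT1 to WT3. The groups overlapped and the difference was not called (log2 fold change -0.17, edgeR adjusted p = 0.243), so this gene checks the labels weakly in a tissue of many cell types. CKO2 stood apart from the other libraries. Its 12 skeletal muscle markers took 6.15% of all counts, against 0.494 and 0.596% in CKO1 and CKO3 and 0.375 to 0.541% in WT, and 0 of the 12 were called in edgeR (2, Myh4 and Pvalb, at an unadjusted p below 0.05 and in DESeq2). Of 12 Schwann cell and myelin markers 10 were lower, and together they took 0.586 to 1.36% of counts in CKO and 5.75 to 6.15% in WT libraries. In whole nerve, fewer cells of a type and less RNA per cell cannot be told apart. Macrophage markers were higher for 8 of 10, at 0.0937 to 0.159% of counts in CKO and 0.0647 to 0.0747% in WT. Of the other lists, 3 of 10 fibroblast and 1 of 10 endothelial markers were higher, and of 6 perineurial markers 2 were higher and 1 lower. The part of these markers in the results below was not tested. No listed marker was at 0 in all libraries.

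Of the 110 rows, 86 were detected, meaning at least 10 counts in at least 3 of the 6 libraries, and the same 86 passed the low-count filter. Another 23 stayed below that, of which 19 had no library with 10 or more counts. Slc2a7 had 0 counts in every library, which allows up to 3 counts, or 0.0820 to 0.108 CPM, in a library by counting error alone. Among the 86, 18 differed between the genotypes at an adjusted p below 0.05, with 5 higher and 13 lower in CKO nerves. That is 20.9% of the members, beside 18.8% of all 18775 genes tested. By direction, 5.81% of members were higher against a background of 8.55%, and 15.1% were lower against 10.3%. These shares of all genes are also the background for every count of called genes by family, partner list or marker list. The median log2 fold change was 0.03 over the members and 0.04 over all genes, so the members as a whole lay near the background. All 3 CKO libraries were above all 3 WT libraries for 15 of the 86 members and below them for 24. Of all 18775 genes tested, 3946 (21%) lay above and 4065 (21.7%) below. The share above was thus smaller among the members and the share below larger. The 18 called members were spread over 13 chromosomes.

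The number of calls changed when single libraries were left out, CKO2 among them. A call lost in such a fit can come from the library left out or from the smaller group, which were not separated. Without CKO2, 14 members were higher and 22 lower, 41.9% of the 86, beside 35.4% of all genes in the same fit (17.8% higher and 17.6% lower). All 18 calls were kept there. Leaving out CKO1 gave 17 called members, 19.8% of the 86, beside 16.3% of all genes in that fit. Leaving out CKO3 gave 8, or 9.30%, beside 10.5% of all genes. Leaving out WT1 gave 5 (5.81% of members, beside 6.63% of all genes), leaving out WT2 gave 7 (8.14%, beside 6.76%), and leaving out WT3 gave 6 (6.98%, beside 6.45%). The calls of Slc2a6, Slc12a2, Slc9a9 and Slc39a10, all lower in CKO, were among those kept in each of the 6 fits that left out 1 library. With library sizes in place of TMM 13 members were called (15.1%, beside 12.1% of all genes), each among the 18, and the calls of Slc16a8, Slc12a8, Slc12a9, Slc4a2 and Slc39a9 were lost.

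**Figure D1:**
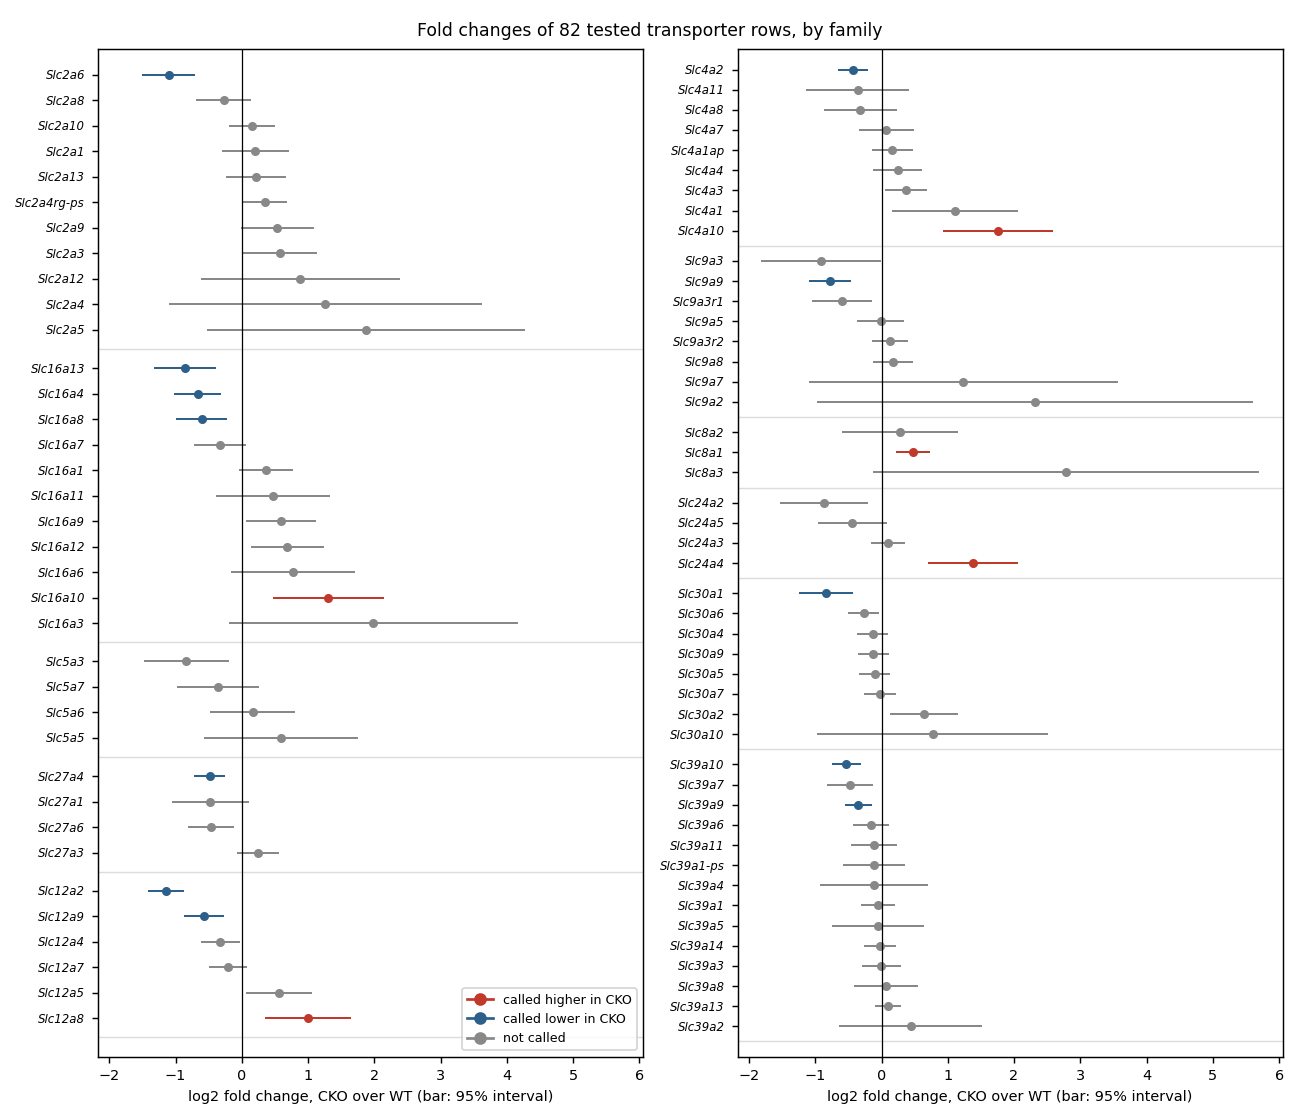
Log2 fold change of CKO over WT for 82 of the 86 tested rows, one line per gene within its family, with 95% intervals as bars; red marks the 5 members called higher in CKO, blue the 12 shown that were called lower and grey the 65 not called. The widest bars belong to genes such as Slc8a3 and Slc9a2 whose CKO2 value stood far above CKO1 and CKO3.

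Levels between genes were compared as CPM per kilobase of exon. The highest mean level was that of Slc39a1, a zinc importer of the plasma membrane, at 51.8 in CKO and 54.0 CPM per kilobase in WT nerves. Slc16a1, the lactate carrier MCT1, followed with 48.4 in CKO and 37.6 CPM per kilobase in WT. Slc12a2, the sodium-potassium-chloride cotransporter NKCC1, had 16.8 in CKO and 36.9 CPM per kilobase in WT. The called members had a median level of 24.3 CPM over the 6 libraries and the uncalled ones 11.7 CPM.

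**Figure D2:**
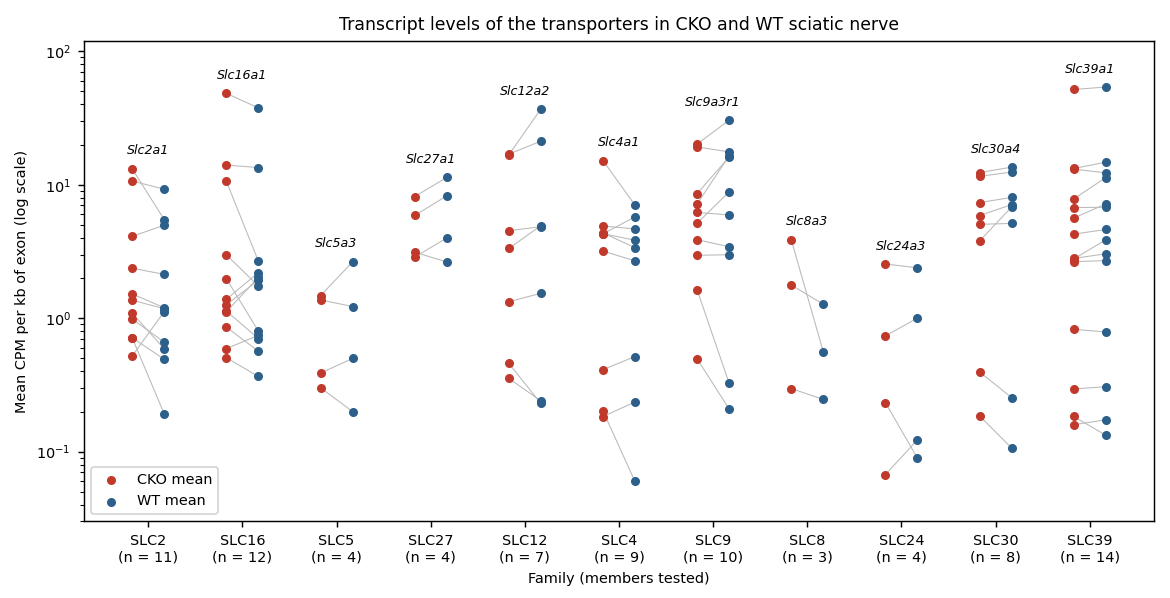
Mean transcript level of each tested member on a log axis of CPM per kilobase of exon, by family, with the CKO mean in red on the left joined to the WT mean in blue on the right. The member with the highest mean over all 6 libraries is named. Slc39a1 and Slc16a1 stand highest, and the lines of Slc12a2 and Slc9a3r1 run up from CKO to WT.

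Among the sugar carriers of the SLC2 family, 11 of 13 members were tested, and 1 was called, lower in CKO nerves. It was Slc2a6, which encodes GLUT6, a hexose carrier of lysosomal membranes (GRCm38 chromosome 2, 27021363 to 27027998, minus strand). Slc2a6 had 1.61, 1.76 and 1.66 CPM in CKO1 to CKO3, against 3.52, 3.83 and 3.44 CPM in WT1 to WT3. The groups did not overlap, and the values within each group lay close together. The fold change was -1.10 on the log2 scale (SE 0.16, edgeR adjusted p = 0.00568). Its level is low, at 0.521 in CKO and 1.12 CPM per kilobase in WT.

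The main glucose carriers of nerve were not called with all libraries. Slc2a1, which encodes GLUT1 of endothelial, perineurial and glial membranes, had the highest level of the family, with 40.5, 25.5 and 46.3 CPM in CKO and 31.5, 33.9 and 31.9 CPM in WT. CKO2 was the lowest of the 6 libraries and CKO1 and CKO3 the highest, so the groups overlapped (log2 fold change 0.21, SE 0.21, edgeR adjusted p = 0.510). Slc2a3, which encodes the high-affinity carrier GLUT3 of neurons, had 8.92, 4.95 and 7.54 CPM in CKO and 5.02, 5.10 and 4.26 CPM in WT, again with CKO2 within the WT range (0.58, SE 0.23, adjusted p = 0.129). Both were called without CKO2, at 0.42 for Slc2a1 (adjusted p = 0.00245) and 0.78 for Slc2a3 (adjusted p = 0.00133). Slc2a9, a urate carrier, and Slc2a13, a myo-inositol carrier, were also called higher without CKO2, at 0.68 and 0.36. Slc2a4, which encodes the insulin-regulated GLUT4 of muscle and fat, had 12.3, 109 and 15.96 CPM in CKO and 20.6, 15.4 and 21.2 CPM in WT. Its high value was that of CKO2, and the log2 fold change was 1.26 with all libraries (SE 0.92, adjusted p = 0.379) and -0.43 without CKO2 (adjusted p = 0.0562).

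Sodium-coupled carriers of the SLC5 family were mostly below detection in the nerve. Of 13 members, 9 were not detected, with at most 6 counts in any library, among them the sodium-glucose cotransporter genes Slc5a1 and Slc5a2. Of the 4 tested, 0 were called in edgeR, 1 at an unadjusted p below 0.05 and in DESeq2. That was Slc5a3, the sodium-myo-inositol cotransporter that cells use to take up an organic osmolyte, which had 20.1, 10.4 and 17.8 CPM in CKO and 23.8, 28.6 and 34.1 CPM in WT. All 3 CKO values lay below all WT values (log2 fold change -0.84, SE 0.26, adjusted p = 0.0703), and without CKO2 it was called lower (-0.61, adjusted p = 0.00715). The other 3, the choline carrier Slc5a7, the iodide carrier Slc5a5 and the vitamin carrier Slc5a6, had log2 fold changes of -0.36, 0.60 and 0.16.

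In the SLC16 family of monocarboxylate carriers, 12 of 14 members were tested, and 1 was higher and 3 lower in CKO nerves. The lactate carriers MCT1, MCT2 and MCT4 were not called. Slc16a1 (MCT1), which glia use to pass lactate to axons, had 254, 162 and 227 CPM in CKO and 161, 169 and 169 CPM in WT. CKO1 and CKO3 lay above every WT library and CKO2 within them (log2 fold change 0.36, SE 0.16, edgeR adjusted p = 0.168). Without CKO2, Slc16a1 was called higher at 0.53 (adjusted p = 0.000166). Slc16a7 (MCT2), the high-affinity carrier of neurons, had 7.32, 5.77 and 7.94 CPM in CKO and 8.08, 8.90 and 9.46 CPM in WT, so all CKO values were lower, but the difference was not called (-0.33, SE 0.16, adjusted p = 0.187). Slc16a3 (MCT4), which exports lactate from glycolytic muscle and astrocytes, had 15.7, 125 and 28.5 CPM in CKO and 18.6, 11.4 and 12.7 CPM in WT. The value of CKO2 set its mean, and the log2 fold change of 1.99 was not called (SE 0.85, adjusted p = 0.171).

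The called members of this family lay far below Slc16a1 in level per kilobase. Slc16a4, a carrier whose substrate is not settled, had 4.67, 6.17 and 5.28 CPM in CKO and 8.24, 8.81 and 8.56 CPM in WT (log2 fold change -0.67, SE 0.15, edgeR adjusted p = 0.0222). Slc16a13 had 2.49, 3.05 and 3.20 CPM in CKO and 5.92, 5.56 and 4.32 CPM in WT (-0.85, SE 0.19, adjusted p = 0.0242). In Slc16a8, the lactate carrier MCT3 known from retinal pigment epithelium, the values were 2.61, 3.19 and 2.83 CPM in CKO and 4.51, 4.32 and 4.32 CPM in WT (-0.61, SE 0.15, adjusted p = 0.0363). For all 3 the CKO values lay below every WT value. Slc16a10, an aromatic amino acid carrier, was the higher one, with 10.2, 23.1 and 10.4 CPM in CKO and 5.59, 6.62 and 5.47 CPM in WT. The groups did not overlap, and CKO2 was more than 2 times as high as CKO1 or CKO3. Its log2 fold change was 1.301 (SE 0.34, adjusted p = 0.0443), and 0.80 without CKO2 (adjusted p = 0.000500). The calls of Slc16a4 and Slc16a10 were lost without CKO3 or any 1 WT library (adjusted p 0.0711 to 0.0930 and 0.0527 to 0.154). That of Slc16a8 was lost without any 1 library other than CKO2 (0.0796 to 0.126), and that of Slc16a13 without CKO1, CKO3, WT1 or WT2 (0.0548 to 0.102).

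Partners of the lactate and glucose carriers numbered 13, all tested, with 1 higher and 1 lower in CKO nerves. Of all genes tested, 8.55% were higher and 10.3% lower. Ldhb, the lactate dehydrogenase subunit that favours conversion of lactate to pyruvate, had 139, 129 and 135 CPM in CKO and 232, 243 and 251 CPM in WT. It fell by 0.85 on the log2 scale (SE 0.08, edgeR adjusted p = 0.00148), a call kept in each of the 6 fits that left out 1 library. Pdk1, a kinase that holds back pyruvate dehydrogenase, had 69.1, 114 and 75.8 CPM in CKO and 47.9, 47.2 and 46.7 CPM in WT (0.87, SE 0.19, adjusted p = 0.0223). Pdk1 was highest in CKO2, and its call was lost without any 1 WT library (adjusted p 0.0872 to 0.0952) and kept without CKO2 (0.62). The chaperones of the SLC16 carriers were not called, with Bsg (basigin) at 0.08 and Emb (embigin) at -0.02. Ldha, the other dehydrogenase subunit, had 270.5, 1102 and 304 CPM in CKO and 248, 245 and 249 CPM in WT (1.18, adjusted p = 0.224), and Txnip, which promotes removal of GLUT1 from the membrane, had 0.19.

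Fatty acid transport proteins of the SLC27 family, which couple uptake of long-chain fatty acids to their activation, had 4 of 6 members tested, and 1 was called, lower. Slc27a4 (chromosome 2, 29802634 to 29817522, plus strand) had 23.8, 27.2 and 26.9 CPM in CKO and 38.2, 35.8 and 35.2 CPM in WT. The groups did not overlap (log2 fold change -0.49, SE 0.09, edgeR adjusted p = 0.0145), and the call was lost without any 1 WT library (adjusted p 0.0605 to 0.0728). Slc27a1, the highest member per kilobase, had 38.1, 66.6 and 38.1 CPM in CKO and 71.7, 59.4 and 67.4 CPM in WT. CKO2 lay within the WT range and the other CKO libraries below it (-0.48, SE 0.23, adjusted p = 0.203), and without CKO2 it was called lower (-0.80, adjusted p = 2.2e-05). Slc27a6 was called lower without CKO2 as well (-0.42, adjusted p = 0.0314, against -0.47 and 0.0599 with all libraries).

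Beside them, 13 genes of fatty acid uptake and activation included 1 called higher and 1 called lower, where 8.55% and 10.3% of all genes were. Fabp4, a fatty acid binding protein of fat cells and capillary endothelium, had 471, 435 and 365 CPM in CKO and 162, 188 and 288 CPM in WT (log2 fold change 0.995, edgeR adjusted p = 0.0274). Acsbg1, an acyl-CoA synthetase, had 3.13, 1.90 and 3.34 CPM in CKO and 6.07, 5.33 and 4.65 CPM in WT (-0.93, adjusted p = 0.0402). Both calls depended on single libraries. That of Fabp4 was kept without WT3 and lost without any other 1 library (adjusted p 0.0524 to 0.111), and that of Acsbg1 was kept without CKO2 and lost without any other 1 library (0.0606 to 0.145). Of the adipocyte markers, 1 of 8 was called, which was Fabp4 itself. The log2 fold changes of Fabp4, Lpl and Pparg were above 0. Those of Adipoq, Plin1, Cidec, Lep and Cfd were below 0, each with its highest value in WT3. The median of the list was -1.29. Cd36, a fatty acid receptor, and Lpl, lipoprotein lipase, were above WT in all CKO libraries, with log2 fold changes of 0.86 and 0.98, but were not called (adjusted p = 0.118 and 0.107). CKO2 was the highest library for both, with 289, 560 and 253 CPM of Cd36 and 343, 705 and 324 CPM of Lpl in CKO1 to CKO3.

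Among the SLC12 cation-chloride cotransporters, 7 of 9 members were tested, with 1 higher and 2 lower in CKO nerves. Those are 14.3% and 28.6% of the 7, beside 8.55% and 10.3% of all genes tested. Slc12a2 (NKCC1), which loads cells with sodium, potassium and chloride (chromosome 18, 57878678 to 57946821, plus strand), had 105.2, 123.1 and 99.3 CPM in CKO and 230.7, 236.6 and 254.6 CPM in WT. Each CKO library lay far below each WT library. It fell by 1.14 on the log2 scale (SE 0.11, edgeR adjusted p = 0.00142), and by 1.24 without CKO2. Slc12a9, a family member with no settled transport function, had 19.0, 16.1 and 15.04 CPM in CKO and 25.8, 23.1 and 25.5 CPM in WT (-0.57, SE 0.12, adjusted p = 0.0196). Slc12a8, also of unsettled function, was the higher one, with 1.97, 1.58 and 2.57 CPM in CKO and 0.842, 1.24 and 0.984 CPM in WT (0.998, SE 0.27, adjusted p = 0.0428). Neither pair of groups overlapped, but the call of Slc12a9 was lost without CKO3 or any 1 WT library (adjusted p 0.0594 to 0.0875) and that of Slc12a8 without any 1 library other than CKO2 (0.0745 to 0.156).

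The potassium-chloride cotransporters, which extrude chloride, were not called with all libraries. Slc12a4 (KCC1), among the 5 highest members per kilobase, had a log2 fold change of -0.32 (adjusted p = 0.0978) and was called lower without CKO2 (-0.22, adjusted p = 0.0474). Slc12a5 (KCC2), the neuronal form, had 0.56 (adjusted p = 0.104) and was called higher without CKO2 (0.70). The thiazide- and loop-diuretic-sensitive carriers of kidney, Slc12a3 and Slc12a1, were not detected.

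SLC12 carriers are switched by WNK kinases through the kinases SPAK and OSR1. Of 13 listed genes of this pathway 3 were called, each lower, and 10 were not called. Of all genes tested, 18.8% were called and 10.3% were called lower. Stk39, which encodes SPAK, the kinase that phosphorylates and activates NKCC1, had 65.5, 51.7 and 61.7 CPM in CKO and 144, 163 and 173 CPM in WT. It fell by 1.42 on the log2 scale (SE 0.12, edgeR adjusted p = 0.000993). Cab39l, a scaffold that activates SPAK, had 65.8, 51.6 and 69.6 CPM in CKO and 124, 137 and 133 CPM in WT (-1.07, SE 0.13, adjusted p = 0.00259). Sgk1, a kinase that controls sodium transport, had 88.8, 82.3 and 76.0 CPM in CKO and 118, 131 and 126 CPM in WT (-0.60, SE 0.09, adjusted p = 0.00646). For these 3 genes the groups did not overlap, and each call was kept in each of the 6 fits that left out 1 library. Wnk1, an upstream kinase, had 0.01, and Oxsr1, which encodes OSR1, had -0.06, neither called (adjusted p = 0.966 and 0.794).

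Of the SLC4 bicarbonate carriers 9 of 11 rows were tested, with 1 higher and 1 lower. Slc4a2 (AE2), a chloride-bicarbonate exchanger of many cell types, had 33.7, 36.0 and 37.2 CPM in CKO and 50.6, 44.4 and 48.5 CPM in WT (log2 fold change -0.42, SE 0.09, edgeR adjusted p = 0.0197). The groups did not overlap, 13.7% of its exon bases overlap other genes, and the call was lost without WT1 or WT3 (adjusted p 0.0885 and 0.0908). Slc4a10, a sodium-dependent bicarbonate carrier of neurons and choroid plexus, was the higher one, with 1.67, 0.825 and 1.40 CPM in CKO and 0.391, 0.461 and 0.301 CPM in WT. Its level is very low and CKO2 was the lowest of the CKO libraries (1.76, SE 0.35, adjusted p = 0.0158). The call was lost without CKO3 or any 1 WT library (0.0540 to 0.0777). Of 9 neuron markers 3 were called higher. Together the 9 took 0.00655 to 0.0153% of counts in CKO, lowest in CKO2, and 0.00613 to 0.00682% in WT. The CKO2 share lay within the WT range, and the part of these markers in the Slc4a10 result was not tested.

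Slc4a1 (band 3, AE1), the anion exchanger of the red cell membrane, had the highest level of this family per kilobase. Its values were 97.2, 72.3 and 53.4 CPM in CKO and 28.01, 52.3 and 22.9 CPM in WT. The groups just failed to overlap, with CKO3 beside WT2 (log2 fold change 1.11, SE 0.38, edgeR adjusted p = 0.0992), and the gene was called without WT2 and by DESeq2. Of 9 erythroid markers 5 were also called higher in CKO nerves. Together the markers took 0.718 to 2.28% of counts in CKO and 0.269 to 0.393% in WT. Slc4a1 and the marker share were both highest in CKO1, but within WT Slc4a1 was highest in WT2 and the share in WT1. The part of these markers in the Slc4a1 result was not tested. The sodium-bicarbonate cotransporter Slc4a4 was called higher without CKO2 (0.38, adjusted p = 0.00539, against 0.24 and 0.284 with all libraries), and Slc4a7, also a sodium-bicarbonate cotransporter, had 0.07.

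Sodium-proton exchangers of the SLC9 family had 10 of 11 rows tested, and 2 were called, both lower. Slc9a9 (NHE9), of late recycling endosomes (chromosome 9, 94669909 to 95230445, plus strand), had 33.7, 29.3 and 24.7 CPM in CKO and 47.2, 51.9 and 51.7 CPM in WT. It fell by 0.78 on the log2 scale (SE 0.13, edgeR adjusted p = 0.00801), with no overlap between the groups. Slc9a3 (NHE3), an exchanger of epithelial membranes, had 66.3, 24.02 and 51.5 CPM in CKO and 82.8, 85.2 and 98.5 CPM in WT. All CKO values were lower and CKO2 the lowest (-0.91, SE 0.36, adjusted p = 0.138), and without CKO2 it was called (-0.60, adjusted p = 0.00258).

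Acid-base partners of these carriers numbered 15, of which 2 were higher and 4 lower, where 8.55% and 10.3% of all genes tested were. Chp1, a calcineurin-like protein that binds sodium-proton exchangers, had 114, 89.0 and 105 CPM in CKO and 160, 166 and 183 CPM in WT (log2 fold change -0.72, SE 0.12, edgeR adjusted p = 0.00807). Chp2, its relative, had 18.6, 6.88 and 11.4 CPM in CKO and 39.04, 38.5 and 39.97 CPM in WT (-1.67, SE 0.34, adjusted p = 0.0222), a call lost without CKO3 or any 1 WT library (0.0768 to 0.0817). Ahcyl2, a regulator of bicarbonate carriers related to IRBIT, had 20.004, 18.1 and 18.7 CPM in CKO and 33.1, 32.0 and 31.5 CPM in WT (-0.77, adjusted p = 0.00239). The carbonic anhydrase genes went both ways. Car2, the cytosolic enzyme also found in red cells, had 40.8, 37.8 and 24.7 CPM in CKO and 8.66, 13.5 and 10.3 CPM in WT (1.67, SE 0.24, adjusted p = 0.00603). Car8, a relative with no enzyme activity, had 1.81 (adjusted p = 0.00243), and Car13, a cytosolic form, had -0.85 (adjusted p = 0.0113), a call lost without WT1 or WT2 (0.0616 and 0.0625). Those of Chp1, Ahcyl2, Car2 and Car8 were kept in each of the 6 fits that left out 1 library. Erythroid markers were also higher in CKO libraries, with values given beside Slc4a1, and their part in the Car2 result was not tested.

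Of the calcium exchangers, all 3 SLC8 members and 4 of 5 SLC24 members were tested, and 1 of each family was called, both higher. Slc8a1 (NCX1), a sodium-calcium exchanger, had 31.1, 35.0 and 33.9 CPM in CKO and 24.2, 25.9 and 21.8 CPM in WT (log2 fold change 0.48, SE 0.10, edgeR adjusted p = 0.0210). Its call was lost without CKO3 or any 1 WT library (adjusted p 0.0612 to 0.101). Slc24a4 (NCKX4), which also carries potassium, had 1.06, 1.22 and 0.885 CPM in CKO and 0.451, 0.461 and 0.301 CPM in WT (1.38, SE 0.28, adjusted p = 0.0179), lost without any 1 WT library (0.0670 to 0.0805). In both, the CKO values lay above every WT value. Slc8a3 (NCX3), known from skeletal muscle and brain, had the highest mean level per kilobase of its family through CKO2 alone, with 4.04, 52.3 and 5.65 CPM in CKO and 3.76, 2.50 and 2.71 CPM in WT (2.79, SE 1.14, adjusted p = 0.156). CKO2 stood far above the other libraries, at 9.81 CPM per kilobase for Slc8a3 and 1.86 for Slc8a1. In each of the other 5 libraries Slc8a1 was the higher, for example at 1.66 against 0.757 CPM per kilobase in CKO1. Slc24a3, the highest SLC24 member per kilobase, had 11.2, 12.05 and 11.6 CPM in CKO and 11.1, 10.6 and 11.045 CPM in WT, and its 95% interval ran from -0.15 to 0.34. Slc24a2, also a potassium-dependent exchanger, was called lower without CKO2 (-1.03, adjusted p = 0.0165, against -0.87 and 0.0688 with all libraries).

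Sodium and calcium pumps, which maintain the gradients these exchangers use, had 2 of 15 higher and 3 lower. The shares of all genes tested were 8.55% and 10.3%. Of the beta subunits of the sodium pump, Atp1b3 was lower (log2 fold change -0.50, edgeR adjusted p = 0.0477) and Atp1b1 higher (0.84, adjusted p = 0.0352). Both calls were lost without CKO3 or any 1 WT library (0.0896 to 0.167 and 0.0717 to 0.130). Atp1b1 was highest in CKO2, with 20.5, 35.4 and 24.2 CPM in CKO and 16.6, 13.4 and 14.8 CPM in WT. Its log2 fold change was 0.58 without CKO2. Fxyd6, a regulator of the sodium pump, had 147, 131 and 165 CPM in CKO and 430, 448 and 469 CPM in WT. It fell by 1.605 on the log2 scale (SE 0.11, adjusted p = 0.000580) and kept its call in each of the 6 fits that left out 1 library. Fxyd3, of the same family, went the other way, with 59.9, 25.8 and 53.4 CPM in CKO and 12.6, 13.1 and 13.5 CPM in WT (1.83, SE 0.31, adjusted p = 0.0118), a call lost without any 1 WT library (0.0610 to 0.0632). The plasma membrane calcium pump Atp2b1 had 0.09 and the reticulum pump Atp2a2 had -0.09, neither called.

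Of the SLC30 exporters 8 of 10 were tested, with 1 called, and of the SLC39 importers 14 of 15 rows, with 2 called, each of them lower. Slc30a1 (ZnT1), which exports zinc across the plasma membrane (chromosome 1, 191906767 to 191913247, plus strand), had 23.9, 15.7 and 20.1 CPM in CKO and 33.8, 33.7 and 39.6 CPM in WT. The groups did not overlap (log2 fold change -0.84, SE 0.17, edgeR adjusted p = 0.0158), 8.92% of its exon bases overlap another gene, and the call was lost without CKO3 or any 1 WT library (adjusted p 0.0552 to 0.0731). Slc39a10 (ZIP10), an importer of the plasma membrane (chromosome 1, 46807544 to 46892852, minus strand), had 43.9, 49.8 and 49.4 CPM in CKO and 68.5, 72.6 and 65.8 CPM in WT (-0.53, SE 0.09, adjusted p = 0.00854). Slc39a9 (ZIP9), a zinc carrier of the Golgi (chromosome 12, 80643883 to 80683342, plus strand), had 60.9, 54.0 and 56.7 CPM in CKO and 74.4, 72.9 and 71.2 CPM in WT (-0.35, SE 0.08, adjusted p = 0.0257). These groups did not overlap either. The call of Slc39a10 was kept in each of the 6 fits that left out 1 library, and that of Slc39a9 was lost without CKO3 or any 1 WT library (0.0786 to 0.102).

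The transcription factor MTF-1 activates Slc30a1 and the metallothionein genes Mt1 and Mt2 when zinc is high, by binding metal response elements. For that reason the start regions of the 3 called zinc carriers are shown. The windows are RefSeq promoters of GRCm38.p6, each 300 bases from 250 before to 50 after the annotated start, written in the direction of transcription, with matches to the core of the element in capitals. The core searched was TGCACNC or TGCGCNC on both strands. Slc30a1 is chr1:191906531-191906830 on the plus strand, Slc39a9 is chr12:80643965-80644264 on the plus strand, and Slc39a10 has 2 windows, of which the one inside the deposited gene span is shown, chr1:46853569-46853868 on the minus strand.
Slc30a1: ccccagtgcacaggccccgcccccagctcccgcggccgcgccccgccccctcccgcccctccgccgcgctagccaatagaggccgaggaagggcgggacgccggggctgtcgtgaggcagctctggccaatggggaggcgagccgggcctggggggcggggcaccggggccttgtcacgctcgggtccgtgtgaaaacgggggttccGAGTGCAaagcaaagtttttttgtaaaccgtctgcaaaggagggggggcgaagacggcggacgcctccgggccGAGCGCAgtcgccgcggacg
Slc39a9: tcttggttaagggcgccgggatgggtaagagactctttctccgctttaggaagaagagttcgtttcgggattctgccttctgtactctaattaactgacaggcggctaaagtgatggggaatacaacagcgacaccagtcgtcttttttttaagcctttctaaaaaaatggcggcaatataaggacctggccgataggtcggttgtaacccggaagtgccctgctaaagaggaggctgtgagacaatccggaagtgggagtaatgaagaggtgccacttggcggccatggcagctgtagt
Slc39a10: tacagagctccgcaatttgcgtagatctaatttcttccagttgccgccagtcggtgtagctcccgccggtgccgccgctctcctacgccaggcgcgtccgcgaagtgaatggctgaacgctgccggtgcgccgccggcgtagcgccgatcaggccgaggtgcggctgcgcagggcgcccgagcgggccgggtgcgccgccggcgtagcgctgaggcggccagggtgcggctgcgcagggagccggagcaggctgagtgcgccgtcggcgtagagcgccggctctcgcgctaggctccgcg
Slc30a1 had 2 matches, both read on the opposite strand, 43 bases before and 30 bases after the start, and the other windows had 0. The core is common: 25.7% of 32851 promoters held it, and 38.2% of the 102 windows that matched 83 of the members' symbols. The hypoxia response core ACGTG was in 24.5% of the members' windows and 19.6% of all, and the E-box CACGTG, which contains that core, in 12.7% and 7.15%. A match is a description of these letters and no evidence of binding.

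Other zinc carriers were not called with all libraries. Slc39a1 (ZIP1) had 135, 107 and 125 CPM in CKO and 125, 127 and 130 CPM in WT (log2 fold change -0.06, 95% interval -0.30 to 0.18, edgeR adjusted p = 0.698), and 21.8% of its 50-base words occur in another gene. Slc30a4 (ZnT4), a vesicular exporter and the highest of its family per kilobase, had 72.7, 67.7 and 62.7 CPM in CKO and 71.3, 71.6 and 79.9 CPM in WT (-0.13, 95% interval -0.35 to 0.08). Slc39a7, the zinc carrier of the endoplasmic reticulum, was below WT in all CKO libraries (-0.47, adjusted p = 0.0602) and was called without CKO2 (-0.40, adjusted p = 0.0353), but 80.1% of its exon bases overlap a second gene model. Slc30a9 was also called lower without CKO2 (-0.21, adjusted p = 0.0394). Over the 14 tested SLC39 rows the median log2 fold change was -0.08 and over the 8 SLC30 members -0.12.

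Of 7 genes of zinc buffering and zinc response 5 were tested, with 1 higher and 2 lower, beside 8.55% and 10.3% of all genes. The metallothionein genes were the lower ones. Mt3, a metallothionein of neurons and glia, had 6.04, 6.74 and 5.11 CPM in CKO and 11.8, 13.1 and 15.9 CPM in WT (log2 fold change -1.19, SE 0.17, edgeR adjusted p = 0.00507), a call kept in each of the 6 fits that left out 1 library. Mt2 had 8.74, 11.7 and 9.16 CPM in CKO and 14.9, 18.9 and 21.5 CPM in WT (-0.90, SE 0.18, adjusted p = 0.0165), lost without CKO3, WT2 or WT3 (adjusted p 0.0628 to 0.0732). Mt1 had 102, 63.3 and 96.0 CPM in CKO and 121, 144 and 151 CPM in WT, all CKO values below WT, but was not called (-0.67, adjusted p = 0.0534). Mtf1, the gene of MTF-1 itself, had -0.13 (adjusted p = 0.397). Sod1, the copper-zinc superoxide dismutase, was the higher one (0.35, adjusted p = 0.0440), lost without any 1 library other than CKO2 (0.0855 to 0.157).

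**Figure D3:**
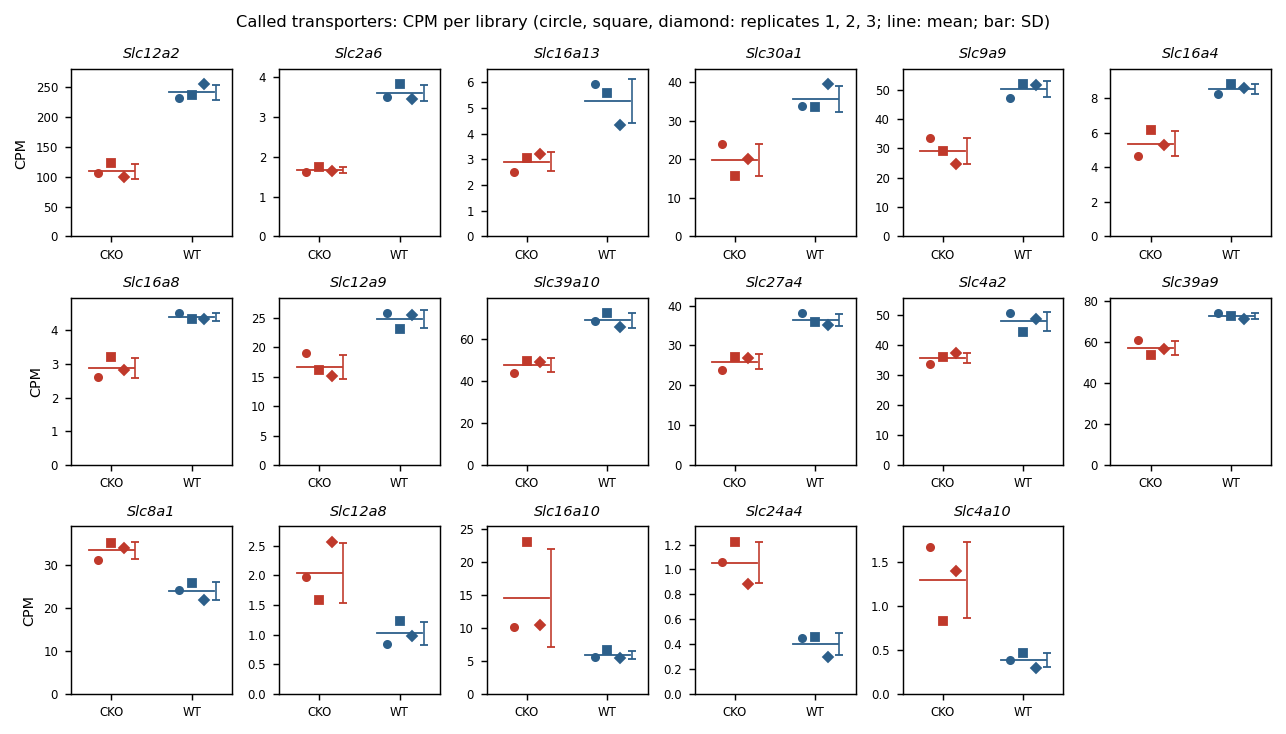
CPM of 17 of the 18 called members in each library, on linear axes from 0, with CKO in red to the left of WT in blue; lines are group means and bars SD (n = 3 each), and circle, square and diamond are replicates 1, 2 and 3. In each panel the groups do not overlap, and in Slc16a10 the CKO2 square stands above CKO1 and CKO3.

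Across the 6 lists of partners, 74 of 76 genes were tested, and 7 were higher and 14 lower. The share of 28.4% called stands beside 18.8% of all genes tested. Because the lists were chosen with earlier results of these data known, no conclusion is drawn from that difference.

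**Figure D4:**
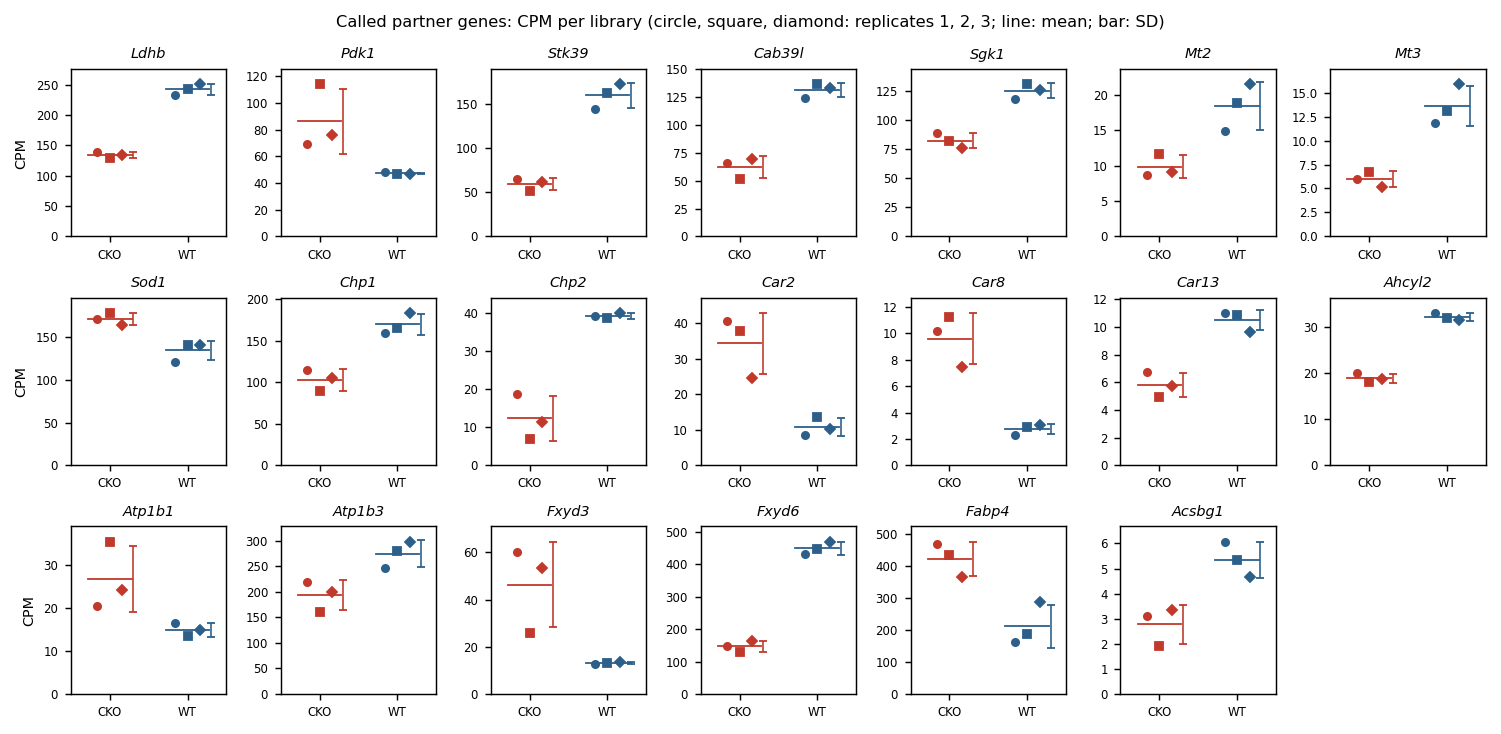
CPM of 20 of the 21 called partner genes in each library, on linear axes from 0, with CKO in red to the left of WT in blue; lines are group means and bars SD (n = 3 each). Stk39, Cab39l, Fxyd6 and Ldhb show CKO values far below WT, and Car2, Car8 and Fxyd3 show CKO values above WT.

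Members with high values in CKO2 were picked out by a cutoff on that library. Over the 86 members, CKO2 was the highest library for 23 (26.7%, beside 27.2% of all genes) and the lowest for 28 (32.6%, beside 28.5%). In 11 of the 86 members (12.8%, beside 8.44% of all genes tested) CKO2 was more than 2 times the mean of CKO1 and CKO3. They were Slc9a2, Slc8a3, Slc2a5, Slc2a4, Slc9a7, Slc16a3, Slc30a10, Slc2a12, Slc39a2, Slc16a6 and Slc16a10, and they are listed for that pattern, which is a description. The largest ratio was that of Slc9a2, the exchanger NHE2, with 1.61, 30.3 and 2.20 CPM in CKO and 3.34, 1.61 and 1.89 CPM in WT. Slc2a5, the fructose carrier GLUT5, had 0.911, 5.88 and 0.485 CPM in CKO and 0.721, 0.576 and 0.656 CPM in WT. Of the 11, Slc16a10 was called with all libraries, and without CKO2 Slc16a10 and Slc8a3 were (0.80 and 0.70). The skeletal muscle markers were high in the same library, and Slc2a4, Slc16a3 and Slc8a3 are known as carriers of muscle. The part of muscle RNA in these values was not tested.

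**Figure D5:**
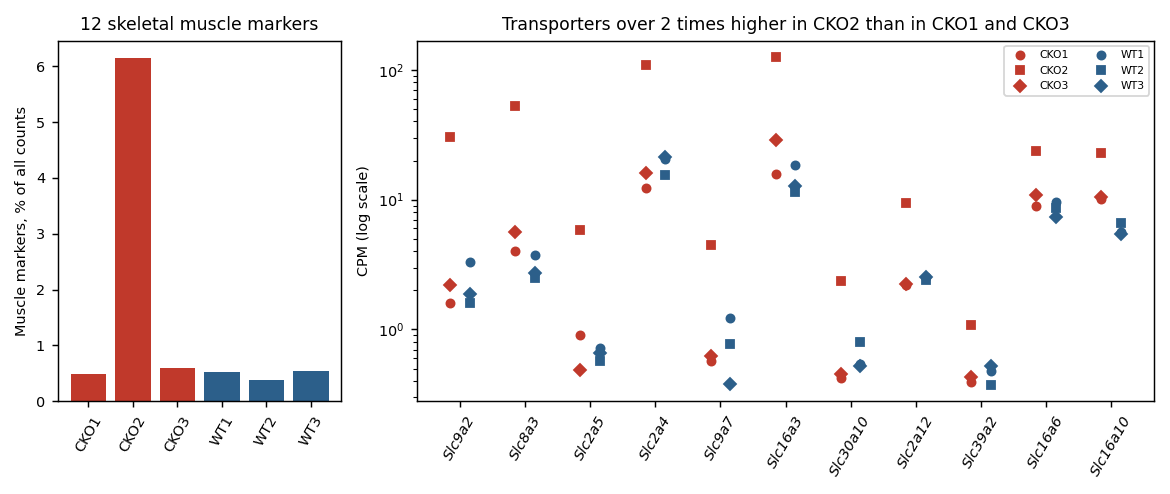
Left, the share of all counts taken by 12 skeletal muscle markers in each library, in percent; right, CPM on a log axis of the 11 members whose CKO2 value exceeded 2 times the mean of CKO1 and CKO3, with CKO in red to the left of WT in blue. The muscle share is 6.15% in CKO2 and at most 0.596% in the other 5 libraries, and CKO1 and CKO3 lie near the WT values for most of the 11 genes.

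The symbol rule also took in 5 rows that are no carriers, and 0 of them were called in edgeR (2 at an unadjusted p below 0.05 and 1 in DESeq2). They are the scaffold genes Slc9a3r1 and Slc9a3r2, whose PDZ proteins anchor NHE3 and other membrane proteins, Slc4a1ap, named for binding of its product to band 3, and the pseudogenes Slc39a1-ps and Slc2a4rg-ps. Slc9a3r1 was the highest SLC9 row per kilobase, with 42.2, 27.9 and 46.5 CPM in CKO and 56.8, 56.3 and 62.7 CPM in WT. All CKO values were lower (log2 fold change -0.59, SE 0.19, edgeR adjusted p = 0.0688), and without CKO2 it was called lower (-0.40, adjusted p = 0.00267) while Slc9a3r2 was called higher (0.22, adjusted p = 0.0413). Of the pseudogene Slc39a1-ps, 54.8% of the 50-base words occur in another gene.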

How the data were processed

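RNA of sciatic nerves was sequenced in 6 libraries, 3 CKO and 3 WT, grouped and numbered by their titles. The values are fragment counts per gene, which the authors deposited without normalization. Per the file headers, they come from featureCounts 1.6.1 on exons of the Ensembl release 95 models of GRCm38, keeping alignments of mapping quality 20 or more and ignoring strand, so reads of overlapping genes cannot be told apart. Subread 2.0 and DESeq2 1.3 are named too, per the submitters' processing notes. The same table holds the exon length of each gene, per the file headers.

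Symbols were matched for 54723 of 54838 identifiers, 115 had none, and 0 rows named no gene. The counts were tested with edgeR 4.0.16 in R 4.3.3: filterByExpr with a minimum count of 10, TMM scaling, robust quasi-likelihood F test (2-sided, 4 residual degrees of freedom) and Benjamini-Hochberg adjustment over all 18775 genes tested, called below 0.05. Every adjusted p in the text is of that kind unless DESeq2 (1.42.0) is named. Levels are TMM-normalised CPM computed here from those counts, and errors of fold changes were derived from the F statistic. The test was tried on simulated counts first. Overlap of exons with other genes and 50-base words shared with other transcripts were checked.

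The members, the lists of partners and markers and the rule for named genes were chosen with earlier results of these data known. All called members were to be named, and some genes, though kept in every fit and count, are not reported here. Values in every library were given for up to 3 called members of smallest p and the highest member per kilobase in each family, for 10 listed carriers, and for most partners that were called. The called partners Atp1b3, Car8, Car13 and Sod1 were given by fold change. At most 4 uncalled partners a list were named. Slc9a3, Slc9a2 and Slc2a5, and other uncalled members given by fold change or by their call without CKO2, were named after their values were seen. Counts of libraries within a group varied beyond sampling noise, with a chi-square divided by its degrees of freedom of 31.8 to 345.8 for CKO pairs and 8.98 to 16.3 for WT pairs, and each library was 1 replicate.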

Additional observations from a re-analysis of the deposited data

How the results depend on the processing

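Other scalings, filters and tools kept the directions of the 54 genes followed across settings. Over these genes, 463 of 594 alternative values stayed as they were, which includes uncalled genes that stayed uncalled. Another 118 lost their call, 11 gained one and 2 changed sign, both without CKO2 and neither called. In fits that left out 1 library the log2 fold change of Slc2a4 ran from -0.43 to 1.71 and that of Slc39a1 from -0.14 to 0.023. With library sizes in place of TMM 2279 genes were called in place of 3534. Fits that left out 1 library called 1246 to 6823 genes, 0 to 14 members higher, 5 to 22 members lower and 11 to 38 partners. Of all genes in those fits, 6.45 to 35.4% were called. The highest count in each case came without CKO2. DESeq2 called 6 members higher and 18 lower, 24 of 89, beside 21.7% of all genes it tested (10.4% higher and 11.3% lower), and 28 partners. No scaling moved the median of all genes by over 0.1 on the log2 scale.

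The replicate numbers are shared between groups but did not pair the libraries: deviations of CKO and WT libraries of the same number correlated at -0.22, -0.23 and -0.08 across genes. With the replicate number as a block, 1852 genes, 2 members higher, 6 members lower (9.30% of members, beside 9.86% of all genes) and 16 partners were called.

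With 3 libraries a group, changes of low genes such as Slc4a10, Slc24a4 and Slc12a8 rest on few counts, and members that missed the threshold are not shown to be alike in CKO and WT nerves.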
